A study of Homo sapiens with 12 samples.

Results

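Histone genes are described here in T-47D, an established human breast epithelial cancer line that expresses the oestrogen receptor, after 24 h with palbociclib, an inhibitor of the cyclin-dependent kinases CDK4 and CDK6. The members were taken from the rows of the deposited expression tables whose symbol begins with a current or former histone symbol (H1-, H2A, H2B, H3C, H3-, H4C, H4-, MACROH2A or HIST1 to HIST4). Described are 51 of 19460 rows, of which 40 are clustered, replication-dependent genes, 9 are variant genes outside that class and 2 fall in neither class (the pseudogene H2BP1, and H3-7). The cells carried no engineered change according to their labels, and all replicates came from this 1 line. In the treated group the medium held palbociclib at 1 µM, and in the control group it held only the solvent DMSO, given as 0.1% for the chromatin assay. Poly(A) RNA was sequenced in 3 libraries per treatment, and chromatin accessibility was measured by ATAC-seq, in which the transposase Tn5 cuts open DNA, in another 3 per treatment. The ATAC dishes are labelled as biological replicates. Nothing states that the RNA libraries came from separate cultures, so their p-values measure the spread between these libraries, which may be technical.

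Histones are the proteins around which DNA is wound, with an octamer of H2A, H2B, H3 and H4 at the core of each nucleosome and H1 at the linker between nucleosomes. The clustered genes supply most of the histone protein for newly replicated DNA. They typically lack introns, are transcribed mainly in S phase, and their mRNA normally ends in a stem-loop bound by SLBP in place of a poly(A) tail. Some members have far longer RefSeq intervals, such as H2BC18 (chr1:149782689-149812370). Variant genes lie singly, mostly give polyadenylated mRNA throughout the cell cycle, and make proteins with particular places in chromatin. H2AX, which is phosphorylated at DNA breaks, is known to yield both kinds of mRNA end. Because the RNA was selected for poly(A), the values of clustered genes count only the tailed part of their mRNA, and a larger tailed part cannot be told apart from more mRNA. Likewise, fewer cells in S phase and less RNA per cell cannot be told apart in these bulk libraries.

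RNA values were FPKM, which scale sequenced fragments by transcript length and library depth, and the tables give no counts for them. The ATAC counts in 38121 peaks summed to between 12830062 and 18250496 per library. MKI67, a marker of cycling cells, fell from 30.8 ± 1.27 to 1.62 ± 0.12 FPKM (mean ± SD, n = 3). All 10 luminal breast markers listed were above 0 in every library, and their summed level was 5599 to 6125 FPKM with DMSO and 7522 to 8304 FPKM with palbociclib. Of the 4 leukocyte markers listed, the 2 in the tables summed to at most 1.34 FPKM in a library. The 3 fibroblast markers in the tables, of 4 listed, summed to between 23.8 and 26.8 FPKM, nearly all of it COL1A1. None of the 3 endothelial markers listed was found in the tables by symbol. The part of these markers in the histone results was not tested.

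The clustered and the variant genes moved mostly in opposite directions. Of 38 clustered genes tested with limma on log2(FPKM + 1), 21 were higher with palbociclib and 2 were lower at an adjusted p under 0.05, and 15 received no call. Across all 15869 genes tested, 20.9% were called higher and 22.9% lower. Of the 9 variant genes, 7 were lower, 1 was higher and 1 received no call. The median log2 change was 0.37 over the clustered genes and -0.43 over the variants, beside 0.0023 over all genes tested. In 21 clustered genes every palbociclib library lay above every DMSO library, and in 2 every one lay below. The share of all tested genes without overlap was 26.5% upwards and 28.2% downwards. These counts describe genes grouped by symbol, and the difference between the classes was not itself tested.

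**Figure D1:**
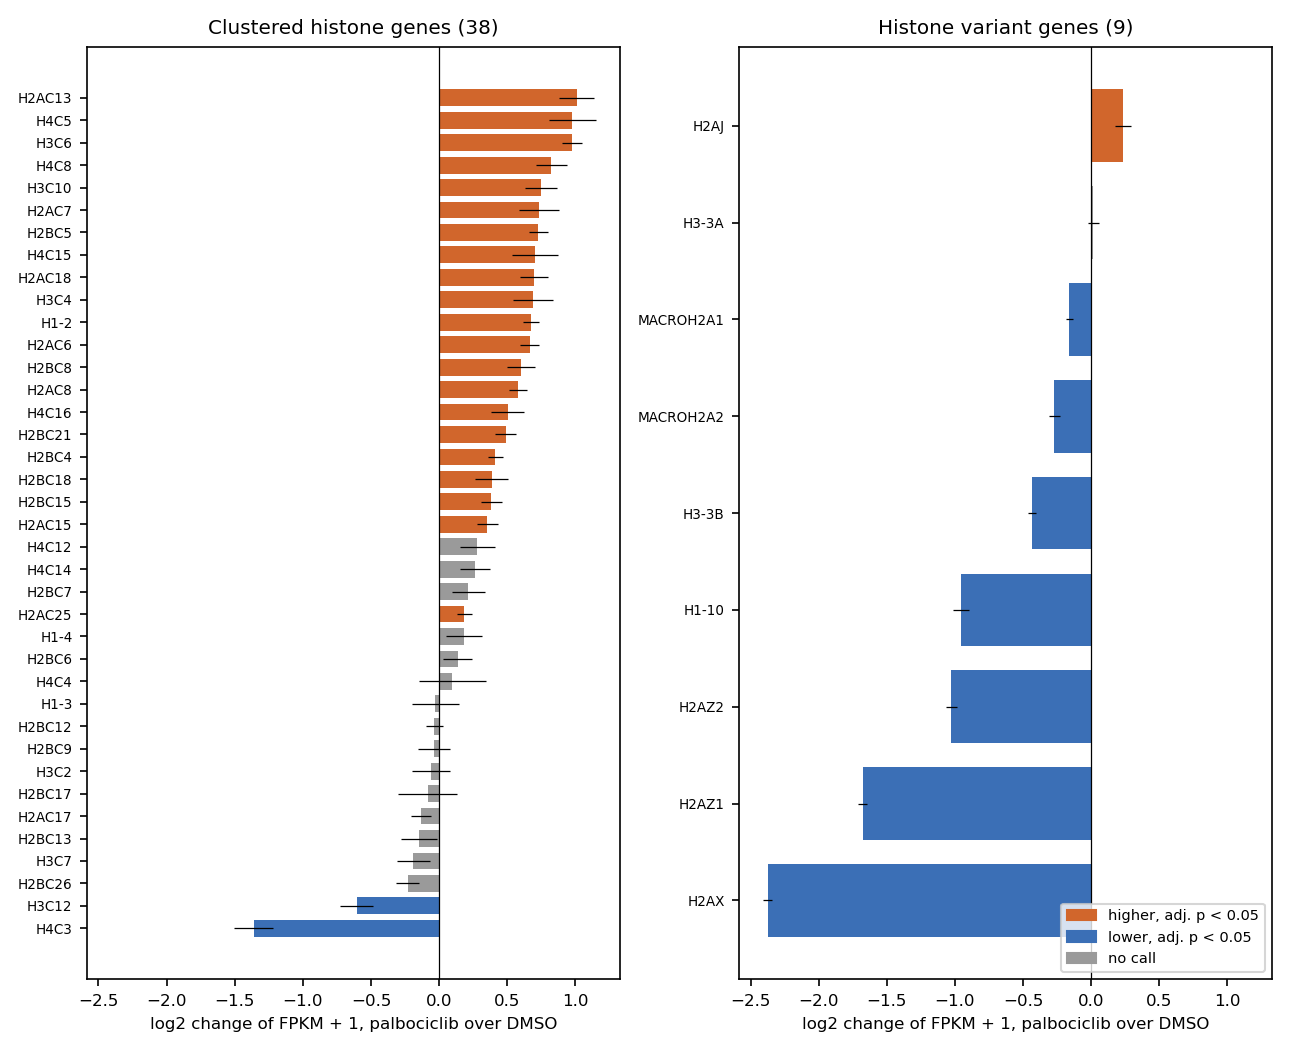
Log2 change of FPKM + 1 with palbociclib over DMSO for the 38 clustered (left) and 9 variant (right) genes tested; bars show the limma estimate, whiskers 1 SE (n = 3 libraries per treatment), and colours the call at an adjusted p under 0.05. Clustered genes reach from -1.36 for H4C3 to 1.01 for H2AC13, and variants from -2.37 for H2AX to 0.24 for H2AJ.

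The balance between the classes shifted in every library. Summed over the 40 clustered genes, the level was 829.7, 804 and 750.1 FPKM with DMSO and 1138, 1111 and 947 FPKM with palbociclib. The sum over the 9 variants was 2859, 2787 and 2803 FPKM with DMSO and 2146, 2167 and 2007 FPKM with palbociclib. Of the FPKM of both classes together, the clustered genes held 21.1% to 22.5% with DMSO and 32.1% to 34.65% with palbociclib, without overlap. Replicate 3 had the lowest clustered sum of its group in both treatments.

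**Figure D2:**
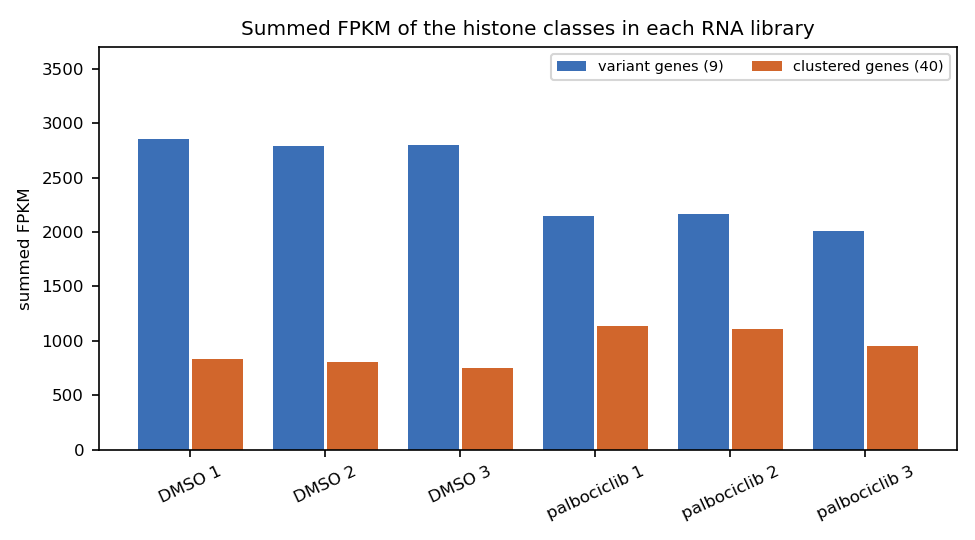
Summed FPKM of the 9 variant genes (blue) and the 40 clustered genes (orange) in each of the 6 RNA libraries; bars are single library values, so they carry no error. The variant bars are lower and the clustered bars higher in all 3 palbociclib libraries than in any DMSO library.

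The promoters of 6 members are shown because they carry the contrasts described here. H2AX and H2AZ1 are the variants whose RNA fell furthest. H2AC13 and H4C5 are 2 of the 3 clustered genes, with H3C6, that rose most on the log2(FPKM + 1) scale. H2BC21 and H3C4 are clustered genes whose RNA rose while a peak over a listed start fell. Each is the 250 bases before the transcription start, from RefSeq on GRCh38.p14, read 5′ to 3′ on the gene's strand. Capitals mark matches, on either strand, to CCAAT, to the octamer ATTTGCAT, to TATAAA, to the cell cycle homology motif TTTGAA, or to one of the E2F forms TTTCCCGC, TTTCGCGC, TTTGCCGC and TTTGGCGC. No matches overlapped in these windows. H3C4 has 2 listed starts, and the one inside its ATAC peak is shown. The counts over members that follow use its other, first listed promoter.
H2AX (variant), chr11:119095466-119095715, minus strand: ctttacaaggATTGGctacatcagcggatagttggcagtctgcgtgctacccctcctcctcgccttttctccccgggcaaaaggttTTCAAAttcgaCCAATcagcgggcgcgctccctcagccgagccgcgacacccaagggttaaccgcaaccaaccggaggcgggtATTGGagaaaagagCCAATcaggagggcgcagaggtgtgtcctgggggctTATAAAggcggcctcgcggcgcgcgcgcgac
H2AZ1 (variant), chr4:99950276-99950525, minus strand: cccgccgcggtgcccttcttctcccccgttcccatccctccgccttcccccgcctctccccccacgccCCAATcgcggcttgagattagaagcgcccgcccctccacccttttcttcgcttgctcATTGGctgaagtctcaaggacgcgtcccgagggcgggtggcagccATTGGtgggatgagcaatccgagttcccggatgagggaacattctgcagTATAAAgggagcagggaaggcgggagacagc
H2AC13 (clustered), chr6:27807923-27808172, plus strand: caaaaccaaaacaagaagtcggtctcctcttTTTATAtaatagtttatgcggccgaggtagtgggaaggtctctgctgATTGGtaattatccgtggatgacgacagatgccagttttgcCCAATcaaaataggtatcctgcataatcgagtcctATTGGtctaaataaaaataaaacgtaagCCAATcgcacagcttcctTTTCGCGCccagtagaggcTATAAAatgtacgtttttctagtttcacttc
H4C5 (clustered), chr6:26204360-26204609, plus strand: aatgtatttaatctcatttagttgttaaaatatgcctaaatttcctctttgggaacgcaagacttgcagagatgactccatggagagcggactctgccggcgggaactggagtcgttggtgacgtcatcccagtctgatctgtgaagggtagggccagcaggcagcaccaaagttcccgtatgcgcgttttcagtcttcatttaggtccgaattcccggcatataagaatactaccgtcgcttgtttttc
H2BC21 (clustered), chr1:149886683-149886932, minus strand: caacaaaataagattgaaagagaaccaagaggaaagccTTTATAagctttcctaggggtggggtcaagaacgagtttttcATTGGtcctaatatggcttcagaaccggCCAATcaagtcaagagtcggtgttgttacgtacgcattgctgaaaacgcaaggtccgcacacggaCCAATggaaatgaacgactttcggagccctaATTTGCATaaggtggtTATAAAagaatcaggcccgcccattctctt
H3C4 (clustered), chr6:26197287-26197536, minus strand: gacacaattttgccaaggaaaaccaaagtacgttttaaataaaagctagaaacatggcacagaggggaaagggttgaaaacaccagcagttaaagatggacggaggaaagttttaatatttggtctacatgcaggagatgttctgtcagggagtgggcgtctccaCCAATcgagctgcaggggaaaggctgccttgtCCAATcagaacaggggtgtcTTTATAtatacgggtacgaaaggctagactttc
The H2AX and H2AZ1 windows have TATAAA 31 bases before the start, as does the H2AC13 window. H2AX has 4 CCAAT matches and H2AZ1 has 3, while H2AC13 has 4 and H2BC21 has 3. H2AC13 has an E2F form in the last 50 bases, and H2BC21 an octamer in the last 46. None of these letters was found in the H4C5 window, which says nothing of the factors that may bind there.

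Over members with a RefSeq promoter, taking the first listed promoter of each gene, CCAAT was found in 30 of 38 clustered genes and 6 of 9 variants, beside 33% of all 27305 promoters. The 8 clustered H4 promoters held none, and all 30 others held at least 1. The octamer was found in 14 of the 38 clustered promoters, 9 of them among the 13 H2B genes, beside 1.66% of all promoters. TATAAA was found in 23 clustered and 4 variant promoters, beside 11.1% of all. An E2F form stood in 6 clustered promoters and no variant promoter, beside 2.79% of all, and TTTGAA in 13 clustered and 1 variant promoter, beside 13.6% of all. Genes with near-identical copies share much of this sequence, so the promoters are not independent of one another. Some H2A and H2B genes also start within 250 bases of each other, so a match in their shared DNA counts for both genes. These pairs are H2AC6 with H2BC4, H2AC7 with H2BC7, H2AC8 with H2BC8, H2AC13 with H2BC13, H2AC15 with H2BC15, H2AC17 with H2BC17, and H2AC25 with H2BC26. Each octamer in a clustered H2A promoter belongs to such a pair. The H3C4 interval ends where that of H2AC7 does. Its first listed promoter has the match counts of H2AC7, 3 CCAAT and 1 octamer, so the same DNA may be counted again. The H3C4 window printed above has 2 CCAAT matches and no octamer.

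Of the linker histones, the clustered H1-2 rose and the lone variant H1-10 fell. H1-2, a main somatic H1 subtype, read 70.6, 65.9 and 64.7 FPKM with DMSO and 115, 110.1 and 97.9 FPKM with palbociclib. Its log2 change was 0.67 ± 0.061 (SE; adjusted p = 4.71e-05), and the groups did not overlap. H1-10 (ENSG00000184897, chromosome 3), a divergent linker histone also called H1x, read 147, 150.2 and 133 FPKM with DMSO and 77.2, 75.1 and 68.3 FPKM with palbociclib. It fell without overlap, by a log2 change of -0.95 ± 0.058 (SE; adjusted p = 4.11e-06), and the order of the pair reversed: every H1-2 value was below every H1-10 value with DMSO and above it with palbociclib. H1-3 and H1-4 averaged under 2 FPKM in both groups and received no call, and H1-6 was under the level filter of 0.5 FPKM.

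Clustered H2A genes rose most uniformly, with 7 of 8 higher, none lower and a median log2 change of 0.62. H2AC18, the most abundant by FPKM, read 76.5, 87.7 and 77.2 FPKM with DMSO and 142, 143 and 109 FPKM with palbociclib. H2AC6 read 39.7, 38.9 and 34.9 FPKM with DMSO and 66.3, 59.2 and 56.1 FPKM with palbociclib. H2AC8 read 15.8, 15 and 13.7 FPKM with DMSO and 24.3, 22.8 and 20.9 FPKM with palbociclib. In these 3 genes all palbociclib libraries lay above all DMSO libraries, and the log2 changes were 0.69 ± 0.10 (SE; adjusted p = 0.000814), 0.66 ± 0.069 (SE; adjusted p = 0.00011) and 0.58 ± 0.067 (SE; adjusted p = 0.000207). H2AC18 has a near-identical copy, H2AC19, so its value depends on how the authors' counting split shared reads. H2AC13 read 11.1, 9.32 and 7.66 FPKM with DMSO and 20.5, 21.6 and 17.1 FPKM with palbociclib, a 2.11-fold higher mean and a log2 change of 1.01 ± 0.13 (SE; adjusted p = 0.000311). On log2(FPKM + 1) that was the largest rise among clustered genes, but the added 1 FPKM shrinks lower genes more, and by the ratio of means H4C5 (2.19-fold) and H3C6 (2.12-fold) stood above it among those tested. H2AC7 read 6.05, 4.09 and 5.63 FPKM with DMSO and 11.4, 8.53 and 8.22 FPKM with palbociclib, a log2 change of 0.73 ± 0.15 (SE; adjusted p = 0.00397), and the groups again did not overlap.

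Smaller H2A rises were seen in H2AC25 and H2AC15. H2AC25, which stands apart from the large chromosome 6 cluster on chromosome 1, read 22.7, 22.8 and 23.7 FPKM with DMSO and 28.5, 26.2 and 24.4 FPKM with palbociclib. Its log2 change of 0.18 ± 0.056 (SE; adjusted p = 0.0284) lost the call without DMSO replicate 1 or 2 or palbociclib replicate 1 or 2, with adjusted p from 0.0675 to 0.0797, and also without the trend term (0.0521) and on counts rebuilt from the FPKM (0.0629). H2AC15 read 2.42, 2.16 and 1.96 FPKM with DMSO and 3.18, 3.11 and 2.88 FPKM with palbociclib, a log2 change of 0.35 ± 0.078 (SE; adjusted p = 0.00654). H2AC17, the H2A gene without a call, read 6.26, 5.27 and 6.24 FPKM with DMSO and 5.45, 5.39 and 5.09 FPKM with palbociclib, which overlapped, with a log2 change of -0.13 ± 0.072 (SE; adjusted p = 0.18). Without DMSO replicate 2 it was called lower, at -0.20 (adjusted p = 0.0463), while adjusted p over all alternatives reached 0.717.

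Clustered H2B genes split into 6 that rose and 7 without a call. H2BC12, the most abundant clustered gene of all, read 258, 247 and 235 FPKM with DMSO and 252, 254 and 218 FPKM with palbociclib. The libraries overlapped and the log2 change was -0.03 ± 0.062 (SE; adjusted p = 0.685), with no call for the leading H2B gene. H2BC5 read 66.9, 66.2 and 66.1 FPKM with DMSO and 121, 114 and 98.1 FPKM with palbociclib. H2BC4 read 31.2, 33 and 31.1 FPKM with DMSO and 43.7, 45 and 39.2 FPKM with palbociclib. H2BC21 read 26.6, 25.4 and 24.2 FPKM with DMSO and 39, 37.7 and 31.7 FPKM with palbociclib. These 3 rose without overlap, by log2 changes of 0.73 ± 0.068 (SE; adjusted p = 5.58e-05), 0.41 ± 0.055 (SE; adjusted p = 0.000434) and 0.49 ± 0.076 (SE; adjusted p = 0.00103). With DMSO, H2BC5 stood within 0.447 FPKM (SD) of its mean of 66.4 FPKM, the narrowest relative spread of these 3.

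H2BC8 read 27.2, 21.6 and 20.4 FPKM with DMSO and 36.8, 37.4 and 31.8 FPKM with palbociclib, a rise of 0.60 ± 0.10 (SE; adjusted p = 0.00187) on the log2 scale. H2BC15 read 4.26, 4.45 and 4.99 FPKM with DMSO and 6.33, 5.7 and 6.73 FPKM with palbociclib, a rise of 0.38 ± 0.077 (SE; adjusted p = 0.00429). Neither gene's groups overlapped. H2BC18, the remaining H2B gene called higher, read 3.52, 4.18 and 3.82 FPKM with DMSO and 5.44, 6.4 and 4.27 FPKM with palbociclib, with a log2 change of 0.38 ± 0.12 (SE; adjusted p = 0.0305). Its call was lost without DMSO replicate 1 or 3 and without palbociclib replicate 1 or 2, with adjusted p from 0.0699 to 0.0894, and on counts rebuilt from the FPKM (0.0735).

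Of the H2B genes without a call, 3 others averaged at least 5 FPKM. H2BC7 read 5.13, 6.82 and 4.47 FPKM with DMSO and 6.85, 6.15 and 6.26 FPKM with palbociclib. H2BC9 read 9.95, 10.3 and 7.51 FPKM with DMSO and 9.27, 9.67 and 7.89 FPKM with palbociclib. H2BC26, which lies beside H2AC25 on chromosome 1, read 10.6, 10.4 and 9.35 FPKM with DMSO and 8.65, 9.39 and 7.41 FPKM with palbociclib. All 3 overlapped between treatments, and the log2 changes were 0.21 ± 0.12 (SE; adjusted p = 0.192), -0.04 ± 0.12 (SE; adjusted p = 0.813) and -0.23 ± 0.084 (SE; adjusted p = 0.0553). H2BC7 was called higher without DMSO replicate 2 (0.36, adjusted p = 0.012), and without DMSO replicate 3 its change was 0.10 (adjusted p = 0.507). H2BC26 was called lower without DMSO replicate 3 (-0.28, adjusted p = 0.0445), without palbociclib replicate 2 (-0.30, adjusted p = 0.027), on rebuilt counts (-0.25, adjusted p = 0.0482) and with the level filter at 5 FPKM (adjusted p = 0.0392), and over all alternatives its adjusted p ranged from 0.0168 to 0.242. H2BC6, H2BC13 and H2BC17 averaged under 2 FPKM in each treatment.

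Among clustered H3 genes, 3 rose and 1 fell. H3C10 read 16.4, 15.1 and 13.2 FPKM with DMSO and 30.2, 25.6 and 21.6 FPKM with palbociclib. H3C6 read 6.55, 5.87 and 6.05 FPKM with DMSO and 13.9, 13.7 and 11.7 FPKM with palbociclib. H3C4 read 5.72, 5.29 and 3.81 FPKM with DMSO and 10.1, 8.45 and 7.08 FPKM with palbociclib. The 3 encode the replication-coupled H3, and all rose without overlap, by log2 changes of 0.75 ± 0.12 (SE; adjusted p = 0.0011), 0.97 ± 0.074 (SE; adjusted p = 1.7e-05) and 0.69 ± 0.15 (SE; adjusted p = 0.00562). H3C12, a gene of very low level, went the other way and read 1.42, 1.23 and 0.851 FPKM with DMSO and 0.447, 0.523 and 0.286 FPKM with palbociclib. Its log2 change was -0.61 ± 0.12 (SE; adjusted p = 0.00385), again without overlap. H3C12 averaged 1.17 FPKM with DMSO and 0.419 FPKM with palbociclib, so it passed the level filter of 0.5 FPKM only through its DMSO values. H3C2 and H3C7 averaged under 2 FPKM and received no call. The RefSeq interval of H3C4 contains that of H2AC7, so the rises of H3C4 and H2AC7 may share reads.

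Clustered H4 genes, which all encode one protein, gave 4 rises, 1 fall and 3 genes without a call. H4C8 read 15.2, 15.4 and 11.9 FPKM with DMSO and 28.2, 27.1 and 22.2 FPKM with palbociclib. H4C5 read 5.88, 5.19 and 4.34 FPKM with DMSO and 14.3, 11.4 and 8.18 FPKM with palbociclib. Both rose without overlap, by 0.82 ± 0.11 (SE; adjusted p = 0.000493) and 0.98 ± 0.17 (SE; adjusted p = 0.00214) on the log2 scale. H4C16, which lies alone on chromosome 12 close to the variant H2AJ, read 4.72, 4.4 and 5.79 FPKM with DMSO and 6.58, 6.88 and 9 FPKM with palbociclib, a rise of 0.50 ± 0.12 (SE; adjusted p = 0.0102). H4C15 read 12.5, 12.7 and 7.44 FPKM with DMSO and 19.4, 17.9 and 16.5 FPKM with palbociclib, a rise of 0.70 ± 0.17 (SE; adjusted p = 0.0103). Its copy H4C14 read 39, 32.4 and 31.9 FPKM with DMSO and 44.2, 45.6 and 34.9 FPKM with palbociclib, with a log2 change of 0.26 ± 0.11 (SE; adjusted p = 0.0848). The pair is near-identical, so how shared reads were divided between them is uncertain, and the difference between their changes was not tested.

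H4C12 read 13.6, 13.1 and 9.94 FPKM with DMSO and 14.3, 17.6 and 13.1 FPKM with palbociclib, which overlapped, with a log2 change of 0.28 ± 0.13 (SE; adjusted p = 0.115). H4C14 and H4C12 were called higher when libraries were centred on their median gene (adjusted p = 0.0256 and 0.0397) or quantile normalized (0.0377 and 0.045). H4C14 was also called higher without DMSO replicate 1 (adjusted p = 0.0331) and without palbociclib replicate 3 (adjusted p = 0.00997). Without palbociclib replicate 2 the adjusted p was 0.241 for H4C14 and 0.332 for H4C12. H4C3 showed the largest fall of any clustered gene and read 3.13, 3.28 and 4.56 FPKM with DMSO and 1.12, 0.712 and 0.597 FPKM with palbociclib. Its mean was 4.51-fold lower with palbociclib, the groups did not overlap, and the log2 change was -1.36 ± 0.14 (SE; adjusted p = 0.00012). H4C4 averaged under 2 FPKM without a call, and H4C2 was under the level filter.

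**Figure D3:**
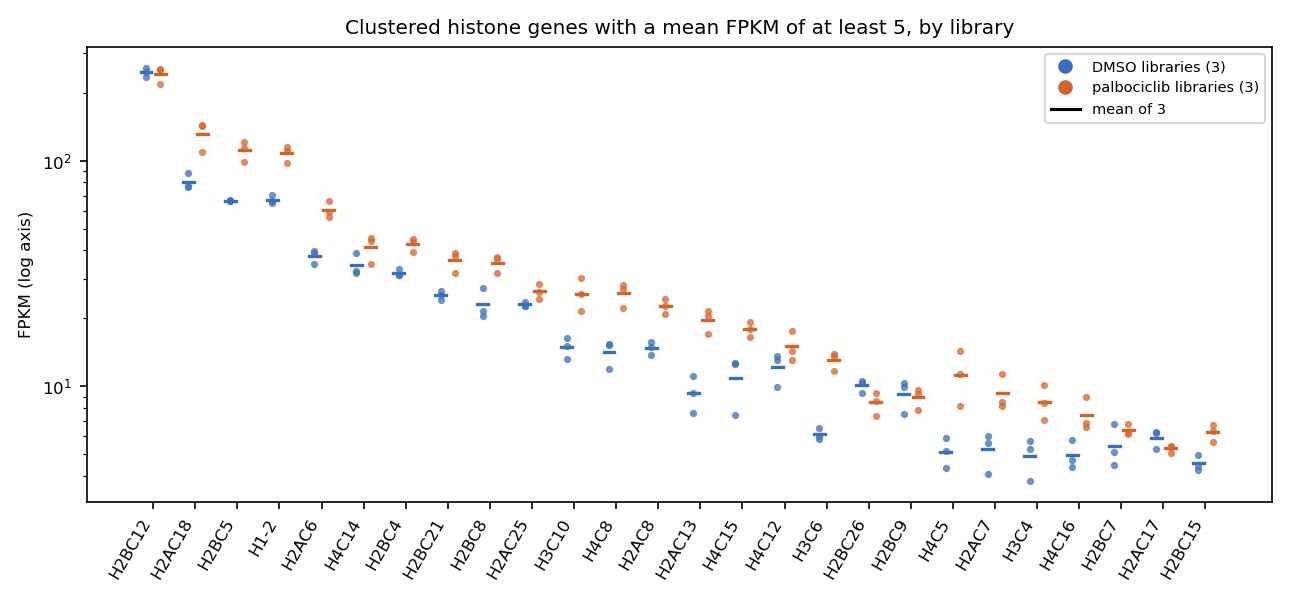
FPKM (log axis) of the 26 clustered genes with a mean of at least 5 FPKM, ordered by mean; points are single libraries (blue DMSO, orange palbociclib, 3 each) and lines their means. In the 19 genes called higher the orange points lie wholly above the blue ones, while H2BC12 at the left overlaps.

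Most clustered genes called higher were of moderate or high level. Of the 26 with a mean of at least 5 FPKM, 19 were higher and none lower, with a median log2 change of 0.59. In the separate fit with the level filter at 5 FPKM, 2562 of all 9888 genes tested were higher and 2873 lower. H2BC26 was called lower in that fit. Of the 12 between 0.5 and 5 FPKM, 2 were higher, 2 lower and 8 without a call, with a median of -0.04. At low levels the added 1 FPKM shrinks fold changes, and a difference between the level bands was not tested. FPKM also depend on transcript length, so they can rank genes otherwise than counts do. H3C6 averaged 9.62 FPKM with an authors' mean normalized count of 1396, and H2AC8 18.7 FPKM with 422.5. By position, 15 of 30 tested genes of the chromosome 6 cluster were higher and 2 lower, beside 20.9% higher and 22.9% lower over all genes. In the larger chromosome 1 cluster 4 of 5 were higher, and of the chromosome 1 pair H2AC25 and H2BC26 the former was.

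Among H2A variants, H2AX and both H2A.Z genes fell furthest. H2AX (ENSG00000188486, chr11:119093874-119095465 in RefSeq on GRCh38.p14) read 148, 152 and 147 FPKM with DMSO and 27.9, 28.7 and 27.3 FPKM with palbociclib. Its mean was 5.33-fold lower with palbociclib, with a log2 change of -2.37 ± 0.033 (SE; adjusted p = 5.2e-10). H2AZ1 (ENSG00000164032, chr4:99948088-99950275), the main gene for H2A.Z, which marks promoters and other regulatory sites, read 456, 450.3 and 478 FPKM with DMSO and 148, 144 and 139 FPKM with palbociclib. Its second gene, H2AZ2 (chr7:44826889-44848126), read 278, 262 and 264 FPKM with DMSO and 136, 129 and 128 FPKM with palbociclib. The means were 3.21-fold and 2.04-fold lower, with log2 changes of -1.68 ± 0.036 (SE; adjusted p = 4.05e-09) and -1.03 ± 0.038 (SE; adjusted p = 1.36e-07). In all 3 genes the gap between the groups was several times the SD within either of them. The means of H2AZ1 and H2AZ2 were 462 ± 14.65 and 268 ± 9.01 FPKM with DMSO (SD, n = 3), and 144 ± 4.37 and 131 ± 4.61 FPKM with palbociclib.

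H2AJ, an H2A variant known to accumulate in senescent cells, was the 1 variant that rose. It read 299.7, 285 and 269.7 FPKM with DMSO and 346, 355 and 307 FPKM with palbociclib, a log2 change of 0.24 ± 0.06 (SE; adjusted p = 0.0126) without overlap. The macroH2A genes encode H2A forms with a large added domain that are linked to repressed chromatin. MACROH2A1 read 198, 198 and 197 FPKM with DMSO and 176, 179 and 175 FPKM with palbociclib. MACROH2A2 read 20.4, 20.4 and 21.1 FPKM with DMSO and 17, 17.5 and 16.3 FPKM with palbociclib. Both fell a little and without overlap, by -0.16 ± 0.026 (SE; adjusted p = 0.00133) and -0.27 ± 0.042 (SE; adjusted p = 0.00106) on the log2 scale. The MACROH2A1 call was lost when libraries were centred on their median gene (-0.07, adjusted p = 0.0854).

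The 2 genes for H3.3, the H3 that is deposited outside replication, did not move alike. H3-3A, the most abundant histone gene in these libraries, read 926, 883 and 896 FPKM with DMSO and 929, 944 and 865 FPKM with palbociclib. The groups overlapped and the log2 change was 0.02 ± 0.04 (SE; adjusted p = 0.768). H3-3B read 385, 386 and 396 FPKM with DMSO and 288, 296 and 281 FPKM with palbociclib, a fall of -0.43 ± 0.03 (SE; adjusted p = 1.02e-05) without overlap. The difference between the changes of the 2 genes was not tested.

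**Figure D4:**
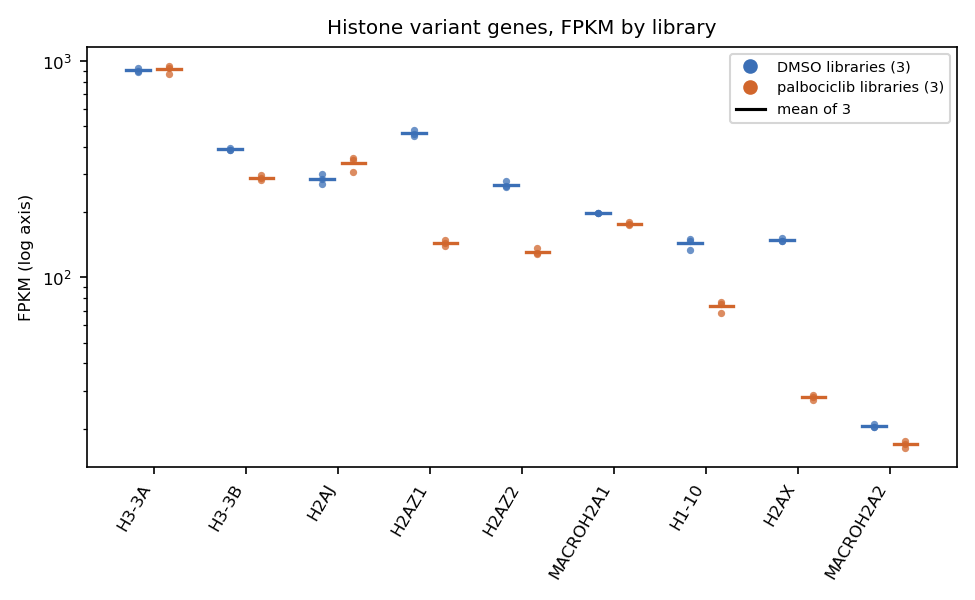
FPKM (log axis) of the 9 variant genes, ordered by mean; points are single libraries (blue DMSO, orange palbociclib, 3 each) and lines their means. H2AX, H2AZ1, H2AZ2 and H1-10 show the widest gaps, H2AJ lies higher with palbociclib, and H3-3A overlaps.

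By level with DMSO the variants ranked H3-3A, H2AZ1, H3-3B, H2AJ, H2AZ2, MACROH2A1, H2AX, H1-10 and MACROH2A2. H2AX and H1-10 did not differ beyond their spread, with 149 ± 2.62 and 143 ± 8.94 FPKM, and neither did H2AJ and H2AZ2. With palbociclib the order was H3-3A, H2AJ, H3-3B, MACROH2A1, H2AZ1, H2AZ2, H1-10, H2AX and MACROH2A2. No neighbours in that order overlapped. H2AZ1 thus went from the second place to the fifth, and H2AX from the seventh to the eighth. H2BP1, in neither class, read 2.55, 2.3 and 2.09 FPKM with DMSO and 2.73, 2.21 and 1.89 FPKM with palbociclib and received no call. H3-7, also in neither class, was under the level filter.

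Genes that drive or process histone mRNA were then read as a list. Of 29 measured, of 30 listed, 19 were lower, 2 were higher and 8 received no call, beside 22.9% lower and 20.9% higher over all genes, and the median log2 change was -0.28. CCNE2, a cyclin that activates CDK2 at the start of S phase, read 32.3, 31.2 and 32 FPKM with DMSO and 1.73, 1.37 and 1.74 FPKM with palbociclib. E2F1, a transcription factor of S phase entry, read 31.2, 32.6 and 30.7 FPKM with DMSO and 3.15, 3.38 and 3.48 FPKM with palbociclib. CDK2, the kinase that activates the histone gene coactivator NPAT, read 62.2, 61.2 and 60.5 FPKM with DMSO and 22.6, 23.7 and 26.2 FPKM with palbociclib. These 3 fell without overlap, by log2 changes of -3.65 ± 0.067 (SE; adjusted p = 1.75e-09), -2.91 ± 0.051 (SE; adjusted p = 1.33e-09) and -1.31 ± 0.052 (SE; adjusted p = 2.24e-07). SLBP, the protein that binds the histone mRNA stem-loop, read 48.3, 46.2 and 48.9 FPKM with DMSO and 20.8, 21.2 and 20.3 FPKM with palbociclib, a fall of -1.16 ± 0.038 (SE; adjusted p = 5.95e-08). The 2 that rose were NCBP2, a cap-binding subunit, at 0.12 ± 0.031 (SE; adjusted p = 0.0143), and TUT7, which adds uridines to RNA ends, at 0.20 ± 0.057 (SE; adjusted p = 0.0226). These 2 were named after their values were seen.

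Histone chaperones, which carry histones to and from DNA, fell in 25 of 33 measured genes, of 35 listed, with none higher and 8 without a call, beside 22.9% lower and 20.9% higher over all genes. Their median log2 change was -0.37. HJURP, which deposits the centromeric H3, read 20.9, 20.4 and 19.8 FPKM with DMSO and 1.41, 1.01 and 0.955 FPKM with palbociclib. ASF1B, which carries H3 and H4, read 27, 26.3 and 24.9 FPKM with DMSO and 2.21, 2.52 and 2.6 FPKM with palbociclib. CHAF1B, a subunit of the replication-coupled assembly factor CAF-1, read 11.6, 10.4 and 11 FPKM with DMSO and 1.9, 1.74 and 1.95 FPKM with palbociclib. All 3 fell without overlap, by -3.34 ± 0.085 (SE; adjusted p = 1.24e-08), -2.98 ± 0.062 (SE; adjusted p = 3.57e-09) and -2.07 ± 0.065 (SE; adjusted p = 4.71e-08) on the log2 scale. MCM2, a subunit of the replicative helicase that also binds H3 and H4, read 44.4, 44.2 and 42.7 FPKM with DMSO and 6.69, 7 and 6.53 FPKM with palbociclib, a fall of -2.53 ± 0.042 (SE; adjusted p = 1e-09). Many of these genes are known to be transcribed with the cell cycle, and both lists were drawn up with earlier results from these samples known, so their direction is not independent evidence.

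In the chromatin data, accessibility over clustered histone genes was lower with palbociclib wherever it was called. Within 1 kb of a member's RefSeq start lay 15 ATAC peaks at 14 members. For H2BP1, H3C12 and H4C3 the gene interval stood in for the start. Of the 10 peaks at clustered genes, 7 were lower and none higher by edgeR's quasi-likelihood test at an adjusted p under 0.05, with a median log2 change of -0.32. Of all 38121 peaks, 6.46% were called lower and 5.41% higher. Of the 6411 peaks within 1 kb of any RefSeq start, 11.1% were lower and 1.86% higher, with a median of -0.04. Peak values that follow are CPM, counts scaled to library depth, after TMM normalization.

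The peak over H3C4 (chr6:26196921-26197485), which overlaps the start and part of the promoter printed above, read 53.7, 51 and 53.5 with DMSO and 31.6, 27.4 and 27.6 with palbociclib. It fell by -0.87 ± 0.074 (SE; adjusted p = 1.81e-14) on the log2 scale, the largest change of the 15 peaks. The peak near the divergent H2BC9 and H3C7 (chr6:26251457-26252016) read 43.9, 37.5 and 42.5 with DMSO and 27.3, 25.6 and 23.6 with palbociclib, a change of -0.69 ± 0.081 (SE; adjusted p = 1.87e-09). In both, every palbociclib library lay well below every DMSO library. The peak over H3C12 (chr6:27890510-27891152) read 42.7, 39.8 and 38.7 with DMSO and 27.3, 29 and 28.6 with palbociclib, a change of -0.51 ± 0.077 (SE; adjusted p = 1.44e-06). A peak beside H2BC17 (chr6:27894189-27894656) read 34.7, 32.5 and 32.3 with DMSO and 23.3, 25.6 and 23 with palbociclib, a change of -0.47 ± 0.083 (SE; adjusted p = 4.07e-05). The stronger peak between H2AC17 and H2BC17 (chr6:27892757-27893791) read 129.6, 127 and 134 with DMSO and 119, 107 and 106 with palbociclib, a smaller change of -0.23 ± 0.051 (SE; adjusted p = 0.00105). No library of 1 treatment overlapped with the other in any of these 5 peaks, which were named for being called. The share of all peaks without overlap was not counted, so here and in later peaks a lack of overlap adds nothing to the test.

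On chromosome 1, the peak over the H2BC21 start (chr1:149886340-149887151) read 155, 143 and 154 with DMSO and 126, 124 and 108 with palbociclib, with a log2 change of -0.33 ± 0.052 (SE; adjusted p = 3.37e-06). The peak at H2BC18 (chr1:149812064-149812839) read 28.7, 24.7 and 26.1 with DMSO and 21.1, 22 and 20.7 with palbociclib, with a change of -0.31 ± 0.09 (SE; adjusted p = 0.0144). Neither overlapped between treatments. The H2BC18 call was lost without DMSO replicate 1 (adjusted p = 0.098) or palbociclib replicate 1 (adjusted p = 0.056). The 3 clustered peaks without a call were a second one by H2BC21 at -0.16 ± 0.076 (SE; adjusted p = 0.161), one at H4C16 at -0.09 ± 0.10 (SE; adjusted p = 0.598) and one at H3C10 at -0.13 ± 0.061 (SE; adjusted p = 0.174). Both H2BC21 peaks also lie within 1 kb of the H2AC20 start, the stronger one within 1 kb of the H2AC21 start too, and the H2BC18 peak within 1 kb of the H3C13 start.

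At some clustered genes RNA rose while accessibility fell. Of the 10 clustered genes with a peak, 5 rose in RNA, and 3 of those 5, H3C4, H2BC21 and H2BC18, had a peak that was lower. At H2BC21 and H2BC18 that peak is shared with starts of genes not described in RNA here, so which gene it belongs to cannot be told apart. The H3C4 interval (chr6:26196784-26199293) contains that of H2AC7 and shares its end, and the peak covers only 1 of the 2 listed H3C4 starts. Which start gave the H3C4 RNA, and how reads shared with H2AC7 were counted, cannot be told apart here. The other two, H3C10 and H4C16, had no call at their peak. H3C12, which passed the RNA level filter only through its DMSO values, was lower in both. The remaining 4 genes, with no call in RNA, had a lower peak. Lower RNA and a lower peak were found together in the variant H2AZ1.

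**Figure D5:**
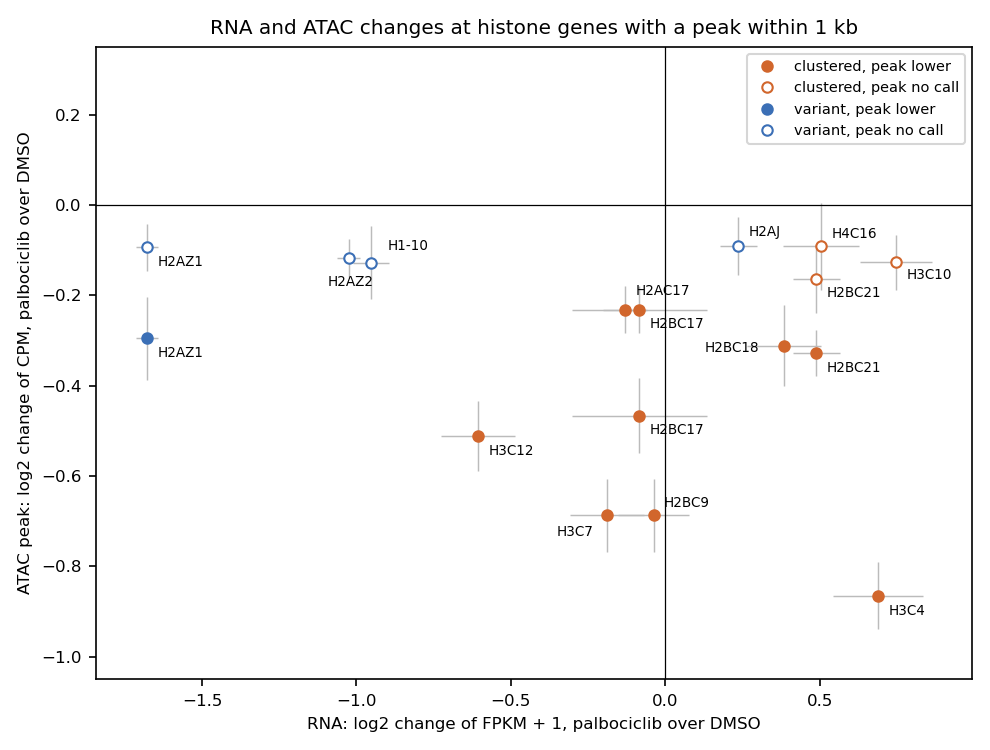
Log2 change in RNA (x axis) against log2 change of an ATAC peak within 1 kb (y axis) for the 14 histone genes with such a peak; each point is a gene and peak pair, whiskers are 1 SE, filled points are peaks called lower. All points lie below 0 on the y axis, and clustered genes (orange) with RNA changes above 0 include H3C4, at -0.87 for its peak.

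At variant genes the changes in accessibility were small. The peak at H2AZ2 (chr7:44847687-44848672) held the most counts of all member peaks and read 292, 302 and 316 with DMSO and 279, 290.0 and 269 with palbociclib. Its groups did not overlap, and the log2 change of -0.12 ± 0.042 (SE; adjusted p = 0.0548) received no call. It was called lower without DMSO replicate 1 (-0.14, adjusted p = 0.0485) and without palbociclib replicate 2 (-0.15, adjusted p = 0.036), and without DMSO replicate 3 the adjusted p was 0.274. The peak over the H2AZ1 start (chr4:99950035-99950933) read 118, 109.8 and 112 with DMSO and 109, 101 and 109 with palbociclib, with a change of -0.09 ± 0.052 (SE; adjusted p = 0.252) and no call, although H2AZ1 RNA fell 3.21-fold. A weaker peak within the H2AZ1 gene (chr4:99949092-99949548) read 29.6, 28.1 and 25.9 with DMSO and 22.2, 26 and 19.7 with palbociclib, a change of -0.30 ± 0.091 (SE; adjusted p = 0.0234), and its groups overlapped by 1 library.

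The call at that weaker H2AZ1 peak was the only one among 5 variant peaks. It was lost without DMSO replicate 1 (adjusted p = 0.11), DMSO replicate 2 (0.0854), palbociclib replicate 1 (0.0868) or palbociclib replicate 3 (0.152), and with DESeq2 (0.0855). The peaks at H2AJ and H1-10 had changes of -0.09 ± 0.064 (SE; adjusted p = 0.386) and -0.13 ± 0.081 (SE; adjusted p = 0.333). No peak of the set lay within 1 kb of the H2AX, H3-3A, H3-3B, MACROH2A1 or MACROH2A2 starts.

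The pattern at clustered genes was also read over RefSeq clustered histone genes whether or not they were measured in RNA, an extension chosen after the data were seen. Among 65 such genes with a start, 19 had a peak within 1 kb, 16 peaks in all. The H3C12 peak described above is not among them, as that gene had no listed start. Of these 16, 12 were lower and none higher, beside 11.1% lower and 1.86% higher of the peaks within 1 kb of any RefSeq start. All 16 estimates were below 0, where the median near any start was -0.04 and the share below 0 was not counted. The 7 peaks that the RNA members had not included gave 6 of the 12 calls. The furthest falls among them were at the linker gene H1-5, from 38.8 to 21.2 CPM (log2 change -0.87, adjusted p = 2.12e-12), and at H2AC16, from 63 to 40.5 (-0.64, adjusted p = 1.88e-11). The peak shared by H2BC3 and H3C3 changed from 56.1 to 37.6 (-0.58, adjusted p = 5.25e-09).

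Splicing could be read only in genes with introns, and no event in a histone gene was called. The authors' rMATS tables held 73 events in 7 members, of which 14 in MACROH2A1, MACROH2A2, H2AZ1 and H2AZ2 passed the read filter. None passed an adjusted p under 0.05 by edgeR's quasi-likelihood test, and 4, all in MACROH2A1, had an unadjusted p under 0.05. Over all 37445 events tested 0.35% were called, and 0.0304% of the mutually exclusive exon events. An unadjusted p under 0.05 was found in 886 of all 13179 mutually exclusive exon events and 1288 of all 13469 skipped exon events. Of the 4 in MACROH2A1, 3 were mutually exclusive exon events and 1 was a skipped exon event, and their reads overlap.

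MACROH2A1 splices in alternative forms of 1 exon, which change the pocket of its macrodomain, and 10 of its events were tested. The event with the lowest p sets a 100-base exon (chr5:135352946-135353045, minus strand) against a 91-base exon (chr5:135350823-135350913). The share of the 100-base form was 89.7%, 91.7% and 91.3% with DMSO and 88.7%, 89% and 89.2% with palbociclib, on an average of 5599 reads per library. The groups did not overlap, and the log2 odds changed by -0.32 ± 0.074 (SE; adjusted p = 0.0708). It passed without DMSO replicate 1 (adjusted p = 0.0167) and without palbociclib replicate 3 (adjusted p = 0.0439). It did not pass without any of the other libraries, with adjusted p from 0.144 to 0.478, the highest without DMSO replicate 2 (log2 odds -0.24). A second event on the same 2 exons, with another flanking exon, had 90.2% ± 1.2 and 88.2% ± 0.84 (SD, n = 3) and a log2 odds change of -0.31 ± 0.093 (SE; adjusted p = 0.225). Reads of these events overlap, so they are not independent.

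In the other mutually exclusive events of MACROH2A1 the same 91-base exon against a 111-base exon gave 84.6% ± 1.8 and 80.8% ± 1.9 for the 111-base form (log2 odds -0.39, adjusted p = 0.152), and against a 284-base exon 33.1% ± 4.9 and 29.6% ± 2.8 (adjusted p = 0.826). The 100-base exon against the 111-base, 284-base and 198-base exons, and the 111-base against a 107-base exon, had log2 odds changes from -0.08 to 0.08. As a skipped exon, the 91-base exon was included at 5.21% ± 0.68 with DMSO and 6.41% ± 0.51 with palbociclib (log2 odds 0.32, adjusted p = 0.385). The event with the most reads in MACROH2A1, the 198-base exon against the 100-base exon, was at 53.1% ± 1.1 and 54.5% ± 0.89. Read as skipped exons, the 198-base, 100-base and 111-base exons were included at 99.79% to 100% in both groups, with an exception for the 111-base exon. With another flanking exon it was included at 96.22% with DMSO and 94.17% with palbociclib. Beside the 91-base exon it was included at 99.91% and 99.96%. These levels set inclusion against direct skipping only. Against a 3′ splice site that leaves 108 bases, the 111-base form held 43.03% and 41.1%. Such pairs are thus mostly not alternatives to one another, and their shares compare reads of the exons, not portions of alternative mRNA forms. In MACROH2A2 the mutually exclusive event tested sets a 198-base exon against a 111-base exon, another pair. The share of the 198-base exon was 51.7% ± 0.97 and 50.8% ± 1.1 (log2 odds -0.05, adjusted p = 0.979). As a skipped exon it was included at 99.77% and 99.88%, so that share is not its portion of the mRNA either.

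The events with the most reads in H2AZ1, H2AZ2, H3-3A and H3-3B had almost a single form and were not tested. In H2AZ1, a 3′ splice site choice of 7 bases stood at 99.8% in both groups, and in H2AZ2 a skipped exon at 97% and 97.4%. The H3-3A exon was included at 99.99% in both groups, and an H3-3B intron retained at 1.82% and 1.9%. In H2AZ1 a retained intron was tested, with a log2 odds change of 0.0034 ± 0.163 (SE; adjusted p = 0.999). In H2AZ2 a mutually exclusive exon pair was tested, with a change of -0.0351 ± 0.104 (SE; adjusted p = 0.985). Beside the large falls of H2AZ1 and H2AZ2 in RNA, no shift between forms was called in either tested event.

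The authors' deposited table, made with DESeq2, gave 20 clustered genes higher and 2 lower at its adjusted p under 0.05, and 1 variant higher and 7 lower. Of these, 19 of the higher and 1 of the lower clustered calls, and all 8 variant calls, were also called in that direction here. Genes called higher here but not in the authors' deposited table were H2AC25 (adjusted p there 0.087) and H2BC18 (0.118), and the reverse held for H4C14 (0.0237). H3C12 was called lower here only (0.075 in the authors' deposited table), and H2BC26 lower there only (0.023). H3-7, not tested here, had a log2 change of 0.86 and an adjusted p of 0.0151 in the authors' deposited table.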

How the data were processed

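RNA values are FPKM as deposited by the authors, 1 column per library. The submitters' processing notes name fastp, STAR, Salmon and DESeq2 1.44.0 on GRCh38 without roles. Counting strand and annotation are not given in the sources used here. The authors' deposited DESeq2 table supplied a mean normalized count (used as a signal), log2 fold changes, a Wald score and p-values. The rMATS tables deposited by the authors hold read counts, inclusion levels as a fraction and p-values. Per the file headers, featureCounts gave the ATAC read counts for a common peak set from alignments without duplicates, and its command has no pair option. No sample column was left unused. Of the rows that met the symbol rule, 1 is not reported here, though it stayed in the fits over all genes.

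RNA was compared with limma 3.58.1 in R 4.3.3 (intensity trend) on log2(FPKM + 1) at a mean FPKM of at least 0.5, so fold changes of low genes are understated. ATAC used edgeR 4.0.16 quasi-likelihood with TMM and filterByExpr. Splicing used edgeR on inclusion and skipping counts with library terms, at a mean of 20 reads and a minor form of 5% of reads. Benjamini-Hochberg adjustment covered all genes, all peaks, or all events of a type, at 0.05. Scripts were tested on simulated data. Members, gene lists and the rule for named items were chosen with earlier results of these data known. The rule names variants at a mean FPKM of at least 0.5 and clustered genes of at least 5, and the 3 largest called changes each way below that. It also names the 4 largest changes of each list, called member peaks, the best-covered peaks and events, and the MACROH2A1 exclusive-exon events. Alternatives were other pseudocounts, filters, scalings and tests, windows, a replicate block and leaving out each library. One of them ran edgeR on approximate counts, scaled back from FPKM with the mean count of the authors' table.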

Additional observations from a re-analysis of the deposited data

How the results depend on the processing

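No named gene, member peak or member event reversed its direction with a call under any alternative run. Clustered genes called higher numbered 19 to 23 and lower 1 to 3 in all RNA settings (19 and 1 at a mean FPKM of at least 5, with 26 genes). Variants called lower numbered 6 or 7. The clustered median of 0.37 moved to 0.47 on rebuilt counts, 0.59 at a mean FPKM of at least 5 and 0.46 with median centring, where the variant median moved from -0.43 to -0.34. Median centring moved the split over all genes from 3312 higher and 3628 lower to 5468 and 2465, and quantile normalization to 4588 and 2856. The cause was not tested.

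Over all peaks, 2061 were higher and 2464 lower. DESeq2 gave 981 and 1533, and scaling by library totals 2573 and 2030. Leaving out a library gave 1103 to 1874 higher and 1557 to 2176 lower. Clustered peaks called lower numbered 6 or 7 of the member peaks in every setting, and 12 over all RefSeq clustered starts. Variant peaks called lower numbered 1, but 0 with DESeq2, 0 within 250 bases, and 0 to 2 when a library was left out.

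Splicing calls over all events, 92 higher and 39 lower, became 47 and 16 without the minor form filter. They ranged over 53 to 82 and 13 to 47 when a library was left out, where member events called lower numbered 0 to 1. With the replicate block they were 161 and 92, and 1 member event, the MACROH2A1 exon pair of 100 and 91 bases, was called lower (adjusted p = 0.0304).

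Nothing states that replicate numbers pair the libraries. Same-numbered deviations correlated at 0.106, -0.005 and 0.088 in RNA and 0.005, 0.039 and -0.025 in ATAC. Differently numbered ones ranged from -0.139 to 0.051 in RNA and from -0.066 to 0.057 in ATAC. With 3 libraries per treatment, these values cannot settle whether the libraries were paired. With the replicate block, clustered genes called were 23 higher and 3 lower, with H4C12, H4C14 and H2BC26 gained. FPKM without counts limits what low genes can show, and paralogous reads limit single clustered genes.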
